A study of Rattus norvegicus with 4 samples.

Results

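The glucocorticoid receptor and a set of genes around it were followed through 4 arrays of rat mammary gland RNA. The 8 genes were the receptor Nr3c1, its inhibitory co-chaperone Fkbp5, the corticosteroid-converting enzymes Hsd11b1 and Hsd11b2, and the glucocorticoid-induced genes Tsc22d3, Sgk1, Dusp1 and Errfi1. They were chosen by gene symbol, and every probe set whose single platform symbol was one of the 8 was taken. This gave 11 probe sets for 8 of the 14217 genes that had a probe set with a single symbol. Nr3c1, Fkbp5 and Dusp1 had 2 probe sets each, and each of the other 5 genes had 1. A probe set is a group of short DNA probes on the array that together give 1 signal for a transcript.

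RNA was taken from mammary glands of homozygous Hirosaki hairless rats (HHR) on lactation day 1, heterozygous HHR on lactation day 1, Sprague-Dawley rats (SDR) on involution day 1 and SDR on lactation day 1. HHR is a hairless mutant strain, and involution is the regression of the gland once milk removal ends. With 1 array in each group there are no replicates. Differences are therefore given by their size alone, with no error and no test. How many animals stand behind each array is not stated in the labels.

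In rats the main glucocorticoid is corticosterone, which binds the receptor in the cytosol, where Hsp90 and co-chaperones hold it ready. The bound receptor enters the nucleus and activates genes at glucocorticoid response elements, among them genes that limit inflammation and kinase signalling and Fkbp5, which feeds back on the receptor. In the mammary gland glucocorticoids act together with prolactin to keep milk protein genes expressed, and they are known to oppose involution.

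Signals are MAS5 signals, the linear intensities of Affymetrix arrays. Values below the floor signal of 91.5, at the 40th percentile of all arrays together, were raised to it before folds and log2 differences were taken, and a gene was called higher or lower where the difference was at least 2-fold. Where 1 of the 2 values lies at the floor, the fold is a lower bound and is written as at least that size. For a gene with several probe sets the brighter probe set stands for the gene, and the second is described beside it. Signals of different genes or probe sets are not compared with each other. Of the 8 genes 7 were above the floor in all 4 arrays, and 9 of the 11 probe sets were. Hsd11b2 and the second Nr3c1 probe set were at the floor in involution only.

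The arrays were checked first. The genes above the floor numbered from 10368 in heterozygous HHR to 10472 in SDR involution. The Gapdh control probes gave a 3′ over 5′ ratio, a measure of RNA integrity, of 2.30 in homozygous HHR, 1.93 in heterozygous HHR and 1.60 in SDR involution, against 1.17 in SDR lactation. For beta-actin it was 5.91, 7.86 and 4.80 in these arrays, against 4.60 in SDR lactation. SDR lactation thus had the lowest ratio of both controls, and the part of RNA integrity in the differences below was not tested. All 9 markers of the luminal epithelium were above the floor in every array, while 4 of 5 markers of liver and kidney (Apoa1, Umod, Slc12a1 and Aqp2) were at the floor in all of them, the exception being Alb.

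Nr3c1, the glucocorticoid receptor (chr18:31522783-31644508, assembly GRCr8), had a signal of 4904 in homozygous HHR, 4266 in heterozygous HHR and 1240 in SDR involution, against 4183 in SDR lactation. The 3 lactation arrays lay close together and the involution array stood below them. Involution was 3.37-fold lower than SDR lactation (log2 difference -1.75). Homozygous and heterozygous HHR were within 1.17-fold and 1.02-fold of SDR lactation. In whole-gland RNA, fewer cells of a type and less RNA per cell cannot be told apart.

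The second Nr3c1 probe set was dim, with 124 in homozygous HHR, 158 in heterozygous HHR and 56.9 in SDR involution, against 323 in SDR lactation. It was at least 3.53-fold lower in involution than in SDR lactation, the same direction as the first. It was also 2.61-fold lower in homozygous HHR and 2.04-fold lower in heterozygous HHR than in SDR lactation, which the brighter probe set did not show. The receptor therefore had no settled difference between HHR and SDR, whereas both probe sets were lower in involution. The places of the probes in the transcript were not used here.

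The sequences before the annotated starts of Nr3c1, Sgk1 and Dusp1 are shown because these are the genes with a promoter entry that were at least 2-fold apart in a comparison. The RefSeq table of build GRCr8 held 11 starts for 6 of the 8 genes, and the windows below are the 250 bases before each start, 5′ to 3′ on the gene's strand. The 3 motifs below were searched on both strands: AGAACA, a single binding site of the glucocorticoid response element; TATAAA, the TATA box; and TGACGTCA, the cAMP response element. Capitals mark a match. The motifs TATAAA and TGACGTCA were added after the sequences had been seen. The windows before the 2 Nr3c1 starts were rich in G and C, at 64.0% and 78.4%, against a median of 51.2% over all 33469 starts, and held none of the 3 motifs. Both lie within the annotated span of the gene, which reaches further upstream. No match of 1 motif overlapped one of another in the windows shown.
Nr3c1, chr18:31614220-31614469, minus strand: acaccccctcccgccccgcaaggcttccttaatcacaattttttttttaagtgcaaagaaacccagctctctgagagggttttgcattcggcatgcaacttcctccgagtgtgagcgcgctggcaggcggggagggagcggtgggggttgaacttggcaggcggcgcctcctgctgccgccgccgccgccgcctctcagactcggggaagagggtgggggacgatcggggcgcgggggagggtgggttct
Nr3c1, chr18:31613440-31613689, minus strand: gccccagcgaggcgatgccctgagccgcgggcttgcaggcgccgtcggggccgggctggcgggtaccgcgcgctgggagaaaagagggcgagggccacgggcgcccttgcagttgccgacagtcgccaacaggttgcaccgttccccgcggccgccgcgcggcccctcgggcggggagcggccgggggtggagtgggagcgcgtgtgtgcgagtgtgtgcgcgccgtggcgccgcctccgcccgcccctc

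**Figure D1:**
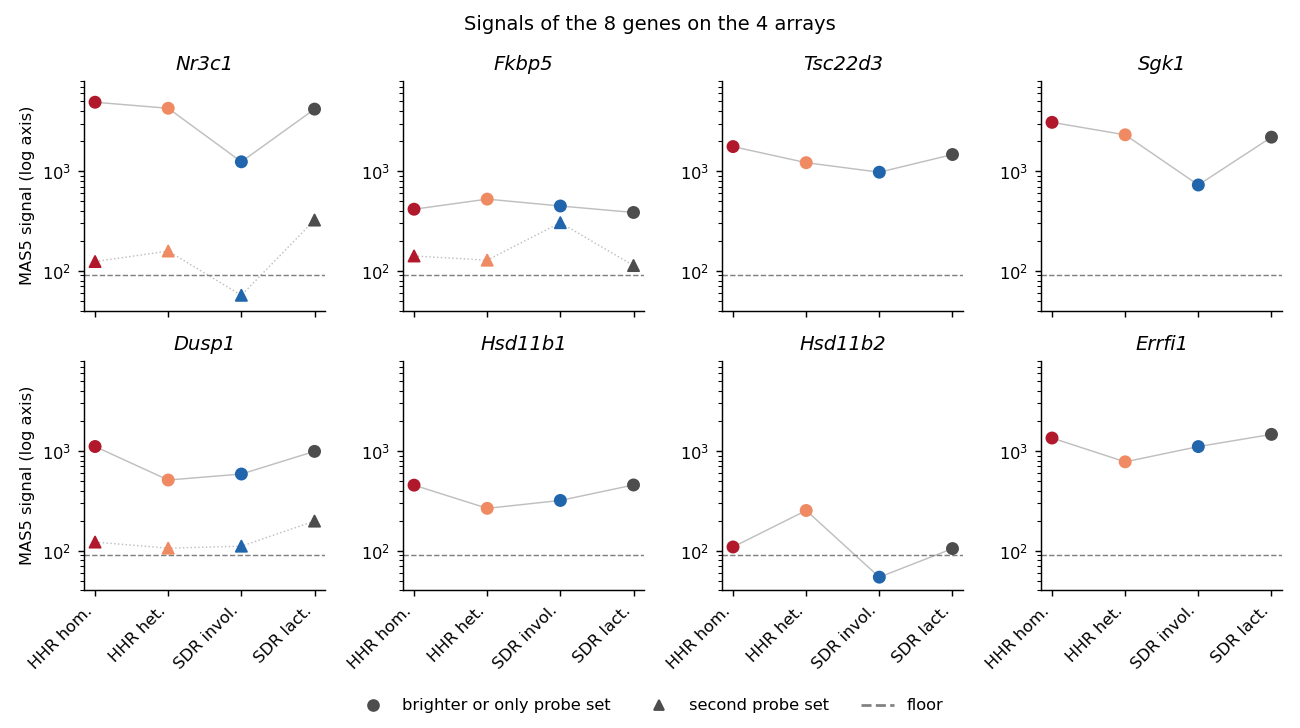
MAS5 signal (log axis) of each gene in homozygous HHR, heterozygous HHR, SDR involution and SDR lactation, 1 array each. Circles are the brighter or only probe set, triangles the second, and the dashed line the floor of 91.5. Nr3c1 and Sgk1 are lowest in involution, at 1240 and 726.

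Fkbp5 (chr20:6458931-6577227) encodes a co-chaperone that lowers the receptor's affinity for hormone and is itself induced by the receptor. Its brighter probe set had 415 in homozygous HHR, 524 in heterozygous HHR and 447 in SDR involution, against 385 in SDR lactation. The 4 values spanned only 0.45 on the log2 scale, and no pair differed by 2-fold. The second probe set had 141 in homozygous HHR, 128 in heterozygous HHR and 304 in SDR involution, against 113 in SDR lactation. Here involution stood apart, 2.69-fold above SDR lactation, while the brighter probe set was 1.16-fold higher. The 2 probe sets share the direction in involution but not the size, and the gene has no settled change there.

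Hsd11b1 (chr13:107277526-107327462) encodes the enzyme that regenerates active corticosterone from its inert 11-keto form inside cells. Its signal was 454 in homozygous HHR, 266 in heterozygous HHR and 319 in SDR involution, against 456 in SDR lactation. Homozygous HHR and SDR lactation were nearly equal, heterozygous HHR was 1.71-fold lower than SDR lactation and involution 1.43-fold lower. None of these reached 2-fold.

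Hsd11b2 (chr19:50307569-50312812) encodes the opposing enzyme, which inactivates corticosterone and so shields the mineralocorticoid receptor in kidney and other epithelia. Its signal was 109 in homozygous HHR, 253 in heterozygous HHR and 54.3 in SDR involution, against 105 in SDR lactation. Heterozygous HHR was highest, homozygous HHR and SDR lactation lay just above the floor of 91.5 and involution below it, so that involution was at least 1.15-fold lower than SDR lactation. Heterozygous HHR was 2.41-fold higher than SDR lactation, and homozygous HHR was 2.32-fold lower than heterozygous HHR. These folds rest on signals close to the floor, and with the floor at the 55th percentile the log2 difference of heterozygous HHR from SDR shrank to 0.35.

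Tsc22d3 (chrX:109006410-109066389) encodes the glucocorticoid-induced leucine zipper protein, an inhibitor of NF-kappaB and AP-1. Its signal was 1762 in homozygous HHR, 1215 in heterozygous HHR and 975 in SDR involution, against 1467 in SDR lactation. The order ran from homozygous HHR down to involution through SDR lactation and heterozygous HHR, and the log2 difference of involution from SDR lactation was -0.59. No comparison reached 2-fold.

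Sgk1 (chr1:24799391-24916886) encodes the serum- and glucocorticoid-induced kinase, which raises sodium channel number at the membrane by blocking the ubiquitin ligase Nedd4l. Its signal was 3082 in homozygous HHR, 2312 in heterozygous HHR and 726 in SDR involution, against 2190 in SDR lactation. As for Nr3c1, involution stood below the 3 lactation arrays. It was 3.02-fold lower than SDR lactation (log2 difference -1.59), and homozygous and heterozygous HHR were 1.41-fold and 1.06-fold above SDR lactation.

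Of the windows before the 3 annotated Sgk1 starts, 2 held a TATA box, beginning at -55 and -33 from the start, and none held AGAACA.
Sgk1, chr1:24807232-24807481, minus strand: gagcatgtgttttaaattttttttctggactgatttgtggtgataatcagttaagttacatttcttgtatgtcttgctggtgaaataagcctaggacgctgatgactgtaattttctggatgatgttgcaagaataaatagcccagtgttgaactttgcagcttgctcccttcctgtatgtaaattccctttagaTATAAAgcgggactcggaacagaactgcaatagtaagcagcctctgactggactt
Sgk1, chr1:24805571-24805820, minus strand: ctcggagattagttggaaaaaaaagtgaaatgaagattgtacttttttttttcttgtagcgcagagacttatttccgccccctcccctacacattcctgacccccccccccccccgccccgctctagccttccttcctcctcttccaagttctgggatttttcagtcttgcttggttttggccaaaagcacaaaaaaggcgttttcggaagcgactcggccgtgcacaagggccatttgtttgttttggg
Sgk1, chr1:24804832-24805081, minus strand: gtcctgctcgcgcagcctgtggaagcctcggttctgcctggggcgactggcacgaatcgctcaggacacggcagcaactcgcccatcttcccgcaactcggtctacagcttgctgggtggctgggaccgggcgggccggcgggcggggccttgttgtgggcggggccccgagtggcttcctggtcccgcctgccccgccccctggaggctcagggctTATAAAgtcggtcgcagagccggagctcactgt

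Dusp1 (chr10:17184853-17187646) encodes a nuclear phosphatase that switches off MAP kinases and is induced both by glucocorticoids and as an immediate early gene. Its brighter probe set had 1108 in homozygous HHR, 511 in heterozygous HHR and 587 in SDR involution, against 990 in SDR lactation. Homozygous HHR and SDR lactation were high, heterozygous HHR and involution low. Homozygous HHR was 2.17-fold higher than heterozygous HHR, heterozygous HHR was 1.94-fold lower than SDR lactation and involution was 1.69-fold lower.

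The second Dusp1 probe set had 122 in homozygous HHR, 106 in heterozygous HHR and 111 in SDR involution, against 198 in SDR lactation. It placed SDR lactation alone above the other arrays, with homozygous HHR 1.63-fold below it and 1.15-fold above heterozygous HHR. The 2-fold difference between the HHR genotypes was thus seen with the brighter probe set only. The window before the Dusp1 start held the cAMP response element TGACGTCA at -124, a motif found in the windows of 1.59% of all starts. The motif was added after this window had been seen, so its rarity over all starts carries no weight here.
Dusp1, chr10:17184603-17184852, plus strand: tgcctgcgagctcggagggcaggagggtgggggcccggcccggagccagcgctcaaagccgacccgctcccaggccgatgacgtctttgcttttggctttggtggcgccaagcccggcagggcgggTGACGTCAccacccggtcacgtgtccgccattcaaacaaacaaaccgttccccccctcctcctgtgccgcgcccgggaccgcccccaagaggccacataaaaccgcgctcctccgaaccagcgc

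Across the 11 starts of the members, 0 of the windows of 250 bases before the start held AGAACA, against 17.5% of all 33469 starts, and with the 50 bases after the start added the numbers were 0 and 20.7%. The full palindromic element (the 6-base site, any 3 bases and the same site on the other strand) was found in 0 member starts with at most 2 of its 12 fixed bases mismatched, against 1.87% of all starts over 300 bases. With up to 3 mismatches 1 member start had it, that of Errfi1, against 14.7% of all starts. A TATA box was present in 4 of the 11 windows before the start, against 12.9% of all. Because TATAAA was added after these windows had been seen, no conclusion can be drawn from that contrast. Receptor binding sites are commonly far from the start, outside windows of this length, so these counts describe the letters near the starts only. The member windows ran from 39.2% (Sgk1) to 78.4% (Nr3c1) G and C, most of them above the median of 51.2% over all starts. The part of base composition in the counts was not tested.

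Errfi1 (chr5:166606841-166620124) encodes a feedback inhibitor that binds the kinase domain of ErbB receptors. Its signal was 1348 in homozygous HHR, 778 in heterozygous HHR and 1106 in SDR involution, against 1466 in SDR lactation. The heterozygous array was the lowest, 1.88-fold below SDR lactation, and homozygous HHR was 1.09-fold below SDR lactation. No comparison reached 2-fold.

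Between homozygous HHR and SDR in lactation, none of the 8 genes was at least 2-fold higher and none at least 2-fold lower, where 3.77% and 2.72% of the 10866 genes measured in this pair were. The 8 log2 differences ran from -0.12 (Errfi1) to 0.49 (Sgk1), with 6 above 0, and their median was 0.14 against 0.02 over all genes. The 8 genes were thus close to SDR on their brighter probe sets, and only the dim second probe set of Nr3c1 was past 2-fold. Myoepithelial markers had 3 of 7 higher, 1 lower and a median of 0.99. Their summed signal was 26677 in homozygous HHR against 14953 in SDR lactation. Fibroblast markers had 0 of 8 past 2-fold. Endothelial markers had 0 of 7 higher, 1 lower and a median of -0.55, with 5843 in homozygous HHR against 8813 in SDR lactation. T cell markers had 0 of 7 higher, 1 lower and a median of -0.55, with 1132 against 1972. Adipocyte markers had 0 of 6 higher, 1 lower (Fabp4, 9885 against 23931) and a median of 0.67, with 21341 against 31289. The part of these cell types in the 8 values was not tested.

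Between heterozygous HHR and SDR in lactation, Hsd11b2 was the 1 gene of 8 called higher and 0 were called lower, against 4.58% and 4.15% of 10876 genes. Dusp1, Errfi1 and Hsd11b1 were 1.94-fold, 1.88-fold and 1.71-fold lower, which leaves each of them just short of the threshold. The 8 differences ran from -0.95 to 1.27 with a median of -0.12. Markers of several cell types moved in the same pair. Of the endothelial markers all 7 were below 0 with a median of -0.71, Cldn5 was 4.59-fold lower, and the summed signal was 5256 in heterozygous HHR against 8813 in SDR lactation. Of the fibroblast markers 1 of 8 was at least 2-fold lower, their median was -0.58, and their summed signal was 42141 in heterozygous HHR against 65547 in SDR lactation. Macrophage and neutrophil markers had 2 of 10 higher, 3 lower and a median of -0.42, with 5014 in heterozygous HHR against 7951 in SDR lactation. T cell markers had 0 of 7 higher, 1 lower and a median of -0.39, with 1176 in heterozygous HHR against 1972 in SDR lactation.

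In the same pair, myoepithelial markers had 1 of 7 higher, 1 lower and a median of 0.68, with 26789 in heterozygous HHR against 14953 in SDR lactation. Adipocyte markers had 2 of 6 higher, 1 lower and a median of 0.49, while their sum was 19092 in heterozygous HHR against 31289 in SDR lactation. Only Fabp4 was lower among those measured, with 9507 in heterozygous HHR against 23931 in SDR lactation, and the sum follows that gene. Luminal epithelial markers had 0 of 9 past 2-fold and a median of 0.03. The part of any of these cell types in the values of Dusp1, Errfi1, Hsd11b1 and Hsd11b2 was not tested.

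Homozygous HHR was then set against heterozygous HHR, a pair that leaves out the SDR array. Dusp1 was called higher and Hsd11b2 lower, 1 gene each of 8, against 3.76% and 3.14% of 10877 genes. Errfi1 was 1.73-fold higher, Hsd11b1 1.70-fold higher and Tsc22d3 1.45-fold higher in homozygous HHR, and 6 of the 8 differences were above 0, with a median of 0.48 against 0.00 over all genes. Fibroblast markers had a median of 0.66 with 1 of 8 higher and a summed signal of 65577 in homozygous HHR against 42141 in heterozygous HHR. Luminal epithelial markers had a median of 0.48 with 0 of 9 past 2-fold and summed signals of 189821 and 194208 in these arrays. Unlike the median, the sum follows the bright Csn2, Wap and Lalba, each slightly lower in homozygous HHR. Of the macrophage and neutrophil markers 9 of 10 were above 0 and 0 past 2-fold, with a median of 0.44 and 7002 in homozygous HHR against 5014 in heterozygous HHR. Endothelial markers had a median of 0.25 with 0 of 7 past 2-fold. The part of these cell types in the result was not tested.

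Between involution and lactation in SDR, Nr3c1 and Sgk1 were called lower and 0 genes higher. That is 2 of 8 lower, against 8.94% of 11014 genes lower and 10.3% higher (985 and 1129 genes, or 1233 lower and 856 higher when arrays were centred on their medians instead). Of the 8 differences 7 were below 0, Fkbp5 being the exception, and the median was -0.55 against 0.08 over all genes. Nr3c1 and Sgk1 were also at least 2-fold below each of the 3 lactation arrays, 3.37-fold and 3.02-fold below the lowest of them, and 4.19% of 11395 genes were. This last count was chosen after the values had been seen.

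Several cell type markers differed between the same 2 arrays. Of the adipocyte markers 2 of 6 measured were lower, with a median of -0.96 and a summed signal of 8813 in involution against 31289 in SDR lactation, and Lep was at the floor in all arrays. Luminal epithelial markers had 4 of 9 higher, 1 lower and a median of 0.78, with summed signals of 219302 in involution and 194812 in SDR lactation. Endothelial markers had 1 of 7 higher and 2 lower, with 5706 in involution and 8813 in SDR lactation. T cell markers had 0 of 7 past 2-fold and a median of -0.55, with 1103 in involution and 1972 in SDR lactation and Cd8a at the floor in all arrays. The part of these cell types in the lower Nr3c1 and Sgk1 signals was not tested.

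**Figure D2:**
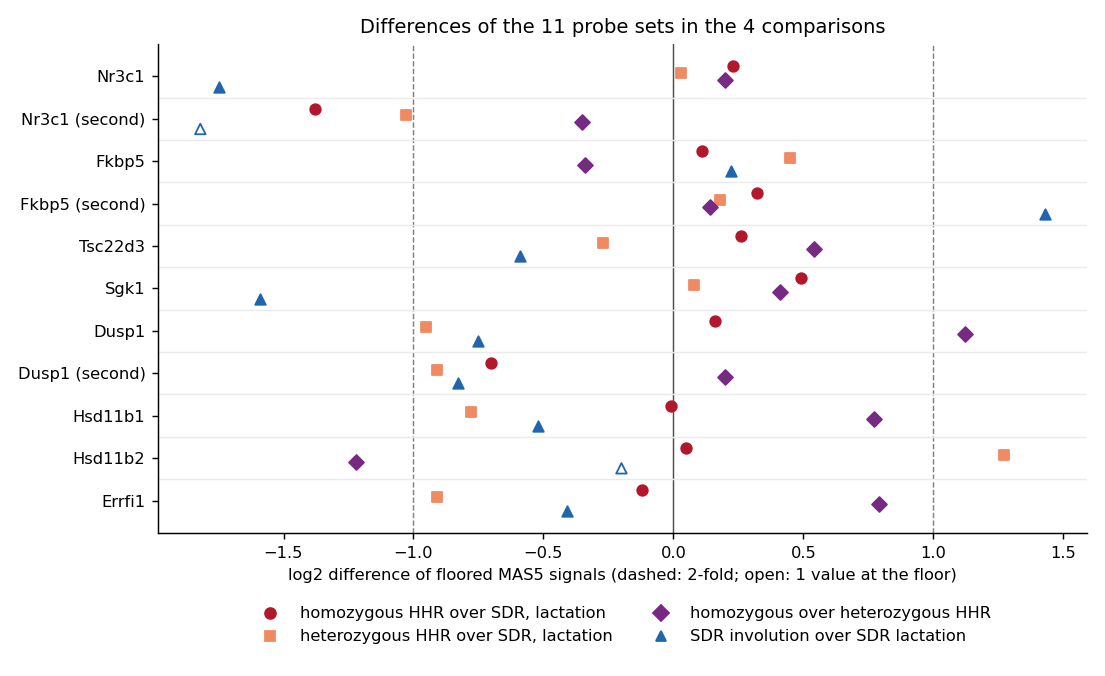
Log2 differences of floored MAS5 signals for the 11 probe sets in the 4 comparisons, with dashed lines at 2-fold and open symbols where 1 value was at the floor. The involution triangles of Nr3c1 and Sgk1 lie at -1.75 and -1.59, and the homozygous HHR circles of the brighter probe sets all lie between -0.12 and 0.49.

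For the members above the floor in all arrays that spanned at least 1 log2 unit, the genes with the nearest profiles were sought among 9392 genes also above the floor throughout. Likeness was the Euclidean distance between log2 signals over the 4 arrays, each centred on its own mean. Nearest to Nr3c1 were Tpd52l1 (distance 0.08), a member of the tumour protein D52 family, Sult5a1 (0.10), a sulfotransferase, and Acly (0.11), the ATP citrate lyase that supplies acetyl-CoA for fatty acid synthesis. Acly had 25003 in homozygous HHR, 21513 in heterozygous HHR and 6156 in SDR involution, against 22946 in SDR lactation.

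Nearest to Sgk1 were Akr1e2 (0.14), an aldo-keto reductase, Tpd52l1 (0.18) and Sorl1 (0.18), a sorting receptor. Nr3c1 had rank 4 for Sgk1 at a distance of 0.20, and Sgk1 had rank 10 for Nr3c1. All of these were lowest in involution, as the plot of the nearest profiles shows. Nearest to Dusp1 were Loxl1 (0.07), a lysyl oxidase of elastic fibres, Cdc42ep3 (0.14), an effector of the Cdc42 GTPase, and Dnajb4 (0.17), an Hsp40 co-chaperone. Loxl1 had 1303 in homozygous HHR, 611 in heterozygous HHR and 734 in SDR involution, against 1207 in SDR lactation. These distances rest on 4 arrays and on the brighter probe set of each gene. The second probe sets of Nr3c1 and Dusp1 ordered the arrays differently.

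**Figure D3:**
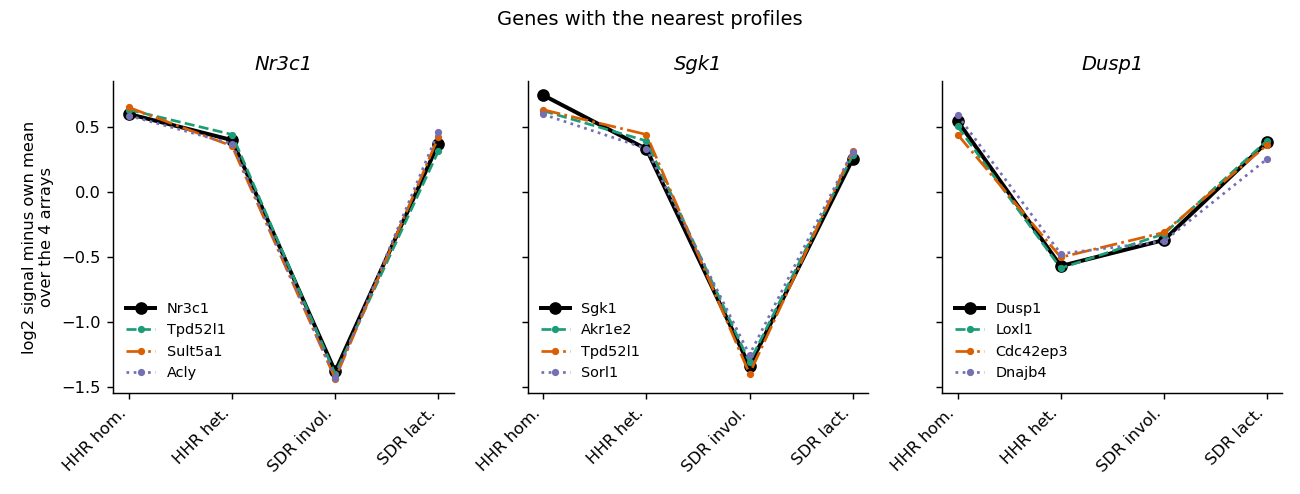
Log2 signal of Nr3c1, Sgk1 and Dusp1 (black) and of the 3 genes nearest to each, centred on each gene's mean over homozygous HHR, heterozygous HHR, SDR involution and SDR lactation. The Nr3c1 and Sgk1 panels drop in involution, and the Dusp1 panel is low in heterozygous HHR and in involution.

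The wider pathway was described with 7 lists of 106 genes in all, 96 of them on the array under a single symbol. The comparisons of homozygous HHR and of involution with SDR lactation share the SDR lactation array, so their values are given side by side only.

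Among 15 measured chaperones and coregulators of the receptor, 1 was higher and 1 lower in each of the 4 comparisons. Over all genes 3.76% to 10.3% were higher and 2.72% to 8.94% lower, so 1 of 15 is close to the background. In homozygous HHR against SDR these were Nrip1, a corepressor of nuclear receptors, 2.70-fold higher, and Nr1h2, a liver X receptor, 2.14-fold lower, with a list median of 0.18. The chaperone Hsp90ab1 had 7350 in homozygous HHR, 7697 in heterozygous HHR and 14471 in SDR involution, against 8942 in SDR lactation. Its 1.62-fold difference in involution did not reach 2-fold. Ptges3, the p23 co-chaperone that steadies the hormone-binding complex, had 8383 in homozygous HHR, 11066 in heterozygous HHR and 9463 in SDR involution, against 8431 in SDR lactation. Stip1, which links Hsp70 to Hsp90, was 2.09-fold lower in homozygous than in heterozygous HHR. Smarca4, a chromatin remodelling ATPase, was 2.36-fold higher in heterozygous HHR and 2.61-fold higher in involution than in SDR lactation, but another of its probe sets went the opposite way in involution.

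Genes of corticosteroid supply and breakdown were weak in the gland, with 3 or 4 of the 9 on the array measured in the pairs with SDR lactation and 0 past 2-fold in any comparison. Akr1c14, a steroid-reducing enzyme, had 169 in homozygous HHR, 142 in heterozygous HHR and 206 in SDR involution, against 235 in SDR lactation.

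Outside the pair of heterozygous HHR and SDR lactation, the list of other genes known to be induced by glucocorticoids had more genes called higher than lower. Of 26 measured genes 9 were higher and 3 lower in involution than in lactation (median 0.27), and 8 of 26 were higher and 2 lower in homozygous HHR than in SDR (median 0.16). In heterozygous HHR against SDR 2 of 25 were higher and 1 lower (median 0.01), which is close to the background. In homozygous against heterozygous HHR 6 of 26 were higher and 0 lower (median 0.13). Over all genes 10.3% were higher and 8.94% lower in involution, 3.77% and 2.72% in homozygous HHR against SDR, 4.58% and 4.15% in heterozygous HHR against SDR, and 3.76% and 3.14% in homozygous against heterozygous HHR.

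Pdk4, a kinase that inhibits pyruvate dehydrogenase, had 3914 in homozygous HHR, 529 in heterozygous HHR and 10724 in SDR involution, against 457 in SDR lactation. Angptl4, an inhibitor of lipoprotein lipase, had 6684 in homozygous HHR, 1719 in heterozygous HHR and 25142 in SDR involution, against 1186 in SDR lactation. In both genes involution was highest and homozygous HHR second. Anxa1, an anti-inflammatory annexin, was 14.2-fold higher and the metallothionein Mt2A 22.6-fold higher in involution than in SDR lactation.

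Cebpd, a transcription factor of the acute phase response, had 4992 in homozygous HHR, 816 in heterozygous HHR and 2854 in SDR involution, against 559 in SDR lactation, which made it 8.94-fold higher in homozygous HHR than in SDR lactation.

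Other genes of this list were lowest in involution. Per1, a circadian clock gene with a known response element, had 445 in homozygous HHR, 564 in heterozygous HHR and 103 in SDR involution, against 215 in SDR lactation, 2.63-fold higher in heterozygous HHR than in SDR lactation. Klf9, a zinc finger factor, had 5202 in homozygous HHR, 4098 in heterozygous HHR and 2856 in SDR involution, against 5366 in SDR lactation, and was under 2-fold apart in every comparison. Slc19a2, a thiamine transporter, had 480 in homozygous HHR, 781 in heterozygous HHR and 440 in SDR involution, against 1606 in SDR lactation. Many of these genes also answer to fasting, inflammation, metals or the clock.

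Genes known to be repressed by glucocorticoids were higher in part. In involution 3 of 8 measured genes were higher and 0 lower (median 0.91), in homozygous HHR against SDR 4 of 8 higher and 0 lower (median 0.54), in homozygous against heterozygous HHR 3 of 8 higher and 0 lower (median 0.88), and in heterozygous HHR against SDR 0 of 7 higher and 1 lower (median -0.31). Over all genes the shares higher were 10.3%, 3.77%, 3.76% and 4.58% in these 4 comparisons. Ccl2, a monocyte chemokine, had 376 in homozygous HHR, 214 in heterozygous HHR and 1135 in SDR involution, against 408 in SDR lactation. Icam1, a leukocyte adhesion molecule, had 525 in homozygous HHR, 273 in heterozygous HHR and 800 in SDR involution, against 244 in SDR lactation. Cxcl1, a neutrophil chemokine, was at least 13.0-fold higher in homozygous HHR and at least 11.4-fold higher in involution than in SDR lactation, where it was at the floor. Il6, Tnf, Ptgs2, Mmp3, Mmp13 and Pla2g2a were at the floor in all 4 arrays. Of 10 markers of macrophages and neutrophils, 2 were higher and 0 lower in involution (median -0.04). In homozygous HHR 2 were higher and 1 lower (median 0.05). The 2 higher were S100a8 and S100a9 in both comparisons, and both were at the floor in SDR lactation. The summed signals were 7002 in homozygous HHR and 11406 in involution, against 7951 in SDR lactation. The higher sum in involution follows S100a8 and S100a9, with 2809 and 1408 there. The part of such cells in the values of the repressed genes was not tested.

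**Figure D4:**
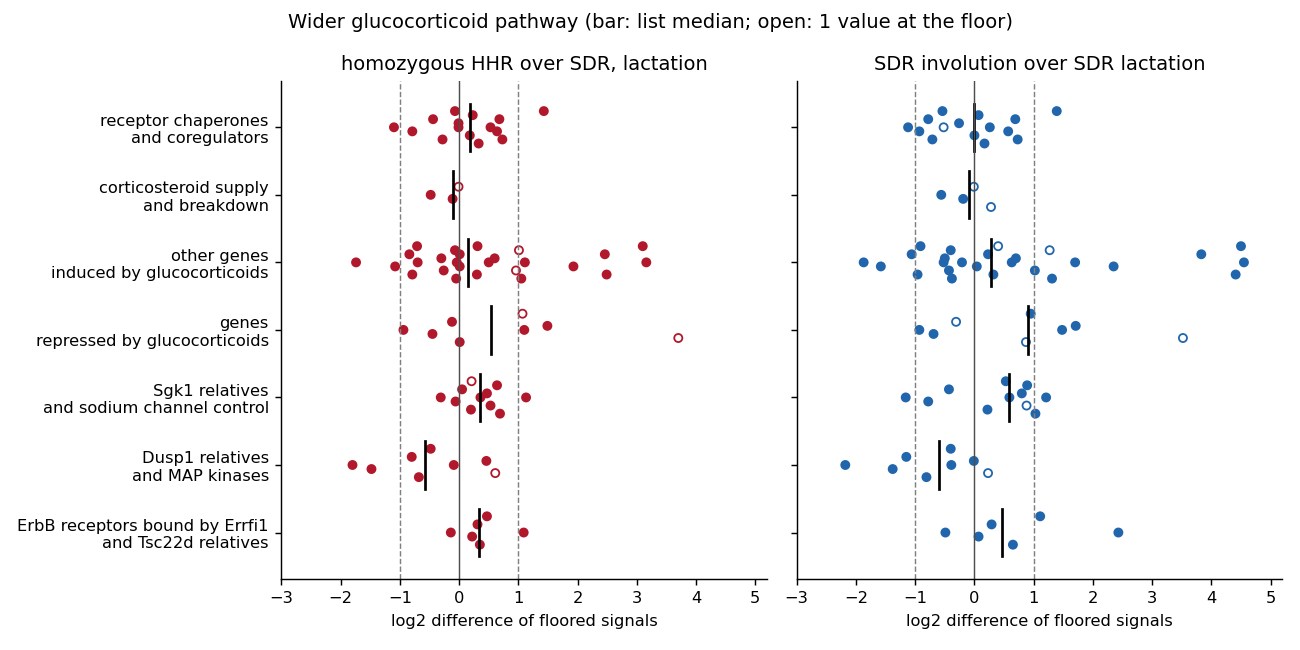
Log2 differences of the measured genes of the 7 pathway lists in homozygous HHR over SDR lactation (left) and SDR involution over SDR lactation (right), with a bar at each list's median and open symbols where 1 value was at the floor. In involution the induced genes reach 4.55 (Pdk4), while their median is 0.27.

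Around Sgk1, its relatives and the sodium channel genes had 2 of 11 measured members higher and 1 lower in involution (median 0.59), and 1 of 11 higher and 0 lower in homozygous HHR against SDR (median 0.36). Over all genes 10.3% were higher and 8.94% lower in involution and 3.77% higher in homozygous HHR, so these counts are close to the background and the values below describe single genes. Nedd4l, the ubiquitin ligase that Sgk1 blocks, was 2.19-fold higher in homozygous HHR and 2.32-fold higher in involution than in SDR lactation. The related kinase Sgk3 was 2.04-fold higher in involution. Ndrg1, a substrate phosphorylated by Sgk1, was 2.23-fold lower there, with 15428 in involution against 34478 in SDR lactation. Scnn1b, the beta subunit of the epithelial sodium channel, had 855 in homozygous HHR, 355 in heterozygous HHR and 786 in SDR involution, against 1058 in SDR lactation. It was 2.98-fold lower in heterozygous HHR than in SDR lactation and 2.41-fold higher in homozygous than in heterozygous HHR.

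Among the relatives of Dusp1, other MAP kinase phosphatases were past 2-fold. In involution 3 of 8 measured genes of that list were lower and 0 higher (median -0.60), and in homozygous HHR against SDR 2 of 8 were lower and 0 higher (median -0.58). Over all genes 8.94% and 2.72% were lower in these comparisons. Dusp5, a nuclear phosphatase for Erk, had 389 in homozygous HHR, 708 in heterozygous HHR and 301 in SDR involution, against 1359 in SDR lactation. Dusp7, a cytosolic one, had 809 in homozygous HHR, 1711 in heterozygous HHR and 1020 in SDR involution, against 2263 in SDR lactation. Dusp2 was 3.12-fold lower in heterozygous HHR and 2.60-fold lower in involution than in SDR lactation.

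The list of ErbB receptors and Tsc22d relatives had 6 measured genes, of which 3 were higher in homozygous than in heterozygous HHR and 2 in involution, against 3.76% and 10.3% of all genes. Of the ErbB receptors that Errfi1 binds, Egfr had 1912 in homozygous HHR, 825 in heterozygous HHR and 979 in SDR involution, against 1377 in SDR lactation. Egfr and Erbb3 were 2.32-fold and 2.54-fold higher in homozygous than in heterozygous HHR, the direction in which Errfi1 itself was 1.73-fold higher. Erbb3 was 2.05-fold lower in heterozygous HHR than in SDR lactation. Erbb4 was at the floor in all arrays. Of the Tsc22d relatives, Tsc22d1 had 11213 in homozygous HHR, 5061 in heterozygous HHR and 28530 in SDR involution, against 5276 in SDR lactation, and was 5.41-fold higher in involution, where Tsc22d3 had a log2 difference of -0.59. For Tsc22d1 2 of 4 probe sets went the opposite way between homozygous and heterozygous HHR, where it is 1 of the 3 genes counted higher. Between homozygous HHR and SDR 1 of 4 did, and none did in involution.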

How the data were processed

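Total RNA from rat mammary gland was column-extracted and labelled as biotinylated cRNA, per the labels' protocols. The deposited values are linear MAS5 intensities. The name MAS5 comes from the submitters' processing notes, and its version is not given in the sources used here. The deposited intensities had the same trimmed mean in each array (500.2 without the lowest and highest 2%), so they had been scaled. Each column name matched 1 sample title, with 0 columns over.

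Of 31099 probe sets 57 were controls, 20826 listed 1 gene symbol, 436 several and 9780 none, and only the first kind was named. Names were checked by gene identifier against a RefSeq table of GRCr8, which matched 20758 probe sets and changed 0 symbols. Its promoter table covers 6 of the 8 genes, not Hsd11b1 and Hsd11b2.

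Signals were floored at 91.5 (the 40th percentile), and log2 differences were taken. A gene counted as measured in a pair if either array had it over the floor. No test was possible with 1 array a group, and the number of arrays limits the precision. From each list the genes past 2-fold could be named, at most the 4 largest with both values above the floor, plus the 2 brightest under 2-fold, and for each member spanning 1 log2 unit the 3 nearest profiles. Genes named outside this rule are so for a value repeated from another comparison, or as listed at the floor. Members, lists and alternatives were chosen with earlier results of these data known. The fold calls were tested on simulated data, with changes added to genes well above the floor. The motif and profile searches were not part of that test. Python 3.11.15, numpy 2.4.6 and pandas 2.3.3 were used. Alternatives were other scalings, floors, probe set rules, fold thresholds, motif windows and mismatches.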

Additional observations from a re-analysis of the deposited data

Results flagged for a closer look

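For 2 genes the difference from SDR lactation had opposite signs in homozygous and heterozygous HHR. Tsc22d3 had a log2 difference of 0.26 in homozygous HHR and -0.27 in heterozygous HHR. Dusp1 had 0.16 in homozygous HHR and -0.95 in heterozygous HHR on its brighter probe set, and -0.70 and -0.91 on the second, where the signs did not differ. With the mean of its probe sets the homozygous difference of Dusp1 was -0.27. With 1 array per genotype these differences between genotypes were not tested, and both use the same SDR lactation array.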

How the results depend on the processing

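The floor, the single array per group and the second probe sets limit what can be said of weak signals such as Hsd11b2. No paired analysis was possible because each group had 1 array, and for the same reason no array could be left out. Over 7 alternatives in scaling, floor and probe set rule, 218 of 224 member differences stayed on their side of 2-fold and 0 called ones reversed. Nr3c1 in involution ranged from -1.90 to -1.68 and Sgk1 from -1.74 to -1.48. The 6 that crossed were Dusp1 in homozygous over heterozygous HHR (0.99 with the floor added as a pseudocount, 0.66 with the mean of all probe sets) and Hsd11b2 in heterozygous HHR over SDR (0.81 with the pseudocount, 0.35 with the floor at the 55th percentile) and in homozygous over heterozygous HHR (-0.78 and -0.35). So the members called in those 2 comparisons were 0 higher and 0 lower with the pseudocount, 0 for Hsd11b2 with the higher floor, and 0 higher in homozygous over heterozygous HHR when probe sets were averaged. Of all 224 values 5 moved by over 1.5 times: the Hsd11b2 values of 0.35 and -0.35 above, Hsd11b2 in involution (-0.95 with the floor at the 25th percentile, against -0.20), Nr3c1 in homozygous HHR over SDR (-0.58 when its probe sets were averaged, against 0.23) and Fkbp5 in involution (0.82 when averaged, against 0.22). Median centring moved the median of all genes in involution to -0.06, against 0.08.

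With a 1.5-fold threshold 4 of the 8 members were lower in involution, 3 lower in heterozygous HHR and 3 higher in homozygous over heterozygous HHR. With a 3-fold threshold Nr3c1 and Sgk1 were still lower, while 0 members were higher in heterozygous HHR and 0 higher or lower between the HHR genotypes. At 1.5-fold the genes of all kinds higher and lower in homozygous HHR over SDR were 1322 and 1085 of the 10866 measured. In heterozygous HHR over SDR they were 1502 and 1412 of 10876, and in homozygous over heterozygous HHR 1336 and 1193 of 10877. In involution over lactation they were 2587 and 1987 of 11014. At 3-fold they were 100 and 51, 130 and 84, 86 and 44, and 345 and 400 of the same measured genes, in the same order. With the floor at the 25th percentile they were 652 and 507, 756 and 689, and 637 and 551 in the comparisons with HHR, and with the pseudocount 261 and 197, 324 and 261, and 261 and 217. With the floor at the 55th percentile 191 genes were lower in homozygous HHR and 297 in heterozygous HHR than in SDR.

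The pathway lists had 96 genes on the array, not all of them measured in each pair. At 2-fold, 15 were higher and 5 lower in homozygous HHR over SDR, against 3.77% and 2.72% of all measured genes. In heterozygous HHR over SDR they were 3 and 6, against 4.58% and 4.15%. In homozygous over heterozygous HHR they were 15 and 2, against 3.76% and 3.14%. In involution they were 17 and 8, against 10.3% and 8.94%. At 1.5-fold they were 23 and 13, 8 and 16, 25 and 7, and 28 and 17, and at 3-fold 6 and 2, 0 and 2, 7 and 0, and 9 and 2. In heterozygous HHR over SDR the pseudocount left 3 lower and the mean of all probe sets 1 higher. Up to 3 mismatches gave the full response element in 1 member promoter. The thresholds set which differences are called. The floors set which genes are measured and also the size of differences near the floor, as for Hsd11b2. The cause of the other changes was not tested.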
